A study of Mus musculus with 12 samples.

Results

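The genes of blood clotting and clot removal were followed in mouse liver after partial hepatectomy. They were the rows of the deposited gene table named after 33 clotting factors, anticoagulants and plasminogen system genes, out of 54532 rows, with fibrinogen left out. The libraries were made from poly(A) RNA of whole liver of wild-type mice of strain C57/BL6J, which had either a sham operation or removal of 70% of the liver. There were 3 sham libraries and 3 libraries each at 3, 6 and 12 h after resection. No time of sampling is stated for sham livers, and neither sex nor age is labelled. One 6 h library, replicate 3, is tagged 7 h but titled 6 h, and its title decided its group. Whether replicates are separate animals is not stated, so p-values measure the spread between these libraries, which may in part be technical.

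Clotting runs through a chain of liver-made zymogens, each cut to an active protease by the one before it, and ends with thrombin, which turns fibrinogen into fibrin. Tissue factor with factor VII starts the chain from outside the vessel, while factor XII, prekallikrein and kininogen form the contact system. Antithrombin, heparin cofactor II, protein C, protein S and protein Z with its inhibitor restrain it, and plasmin, cut from plasminogen, dissolves fibrin. Hepatocytes make most of these proteins, and several zymogens need the vitamin K cycle for carboxylation. Thrombomodulin, the plasminogen activators and the urokinase receptor are known mainly from endothelial, white blood and other non-hepatocyte cells.

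Library totals lay between 15573405 and 17199639 counts. FPKM are fragments scaled by gene length and by an adjusted library size, and comparisons of FPKM between libraries carry that scaling. A gene was tested where it had 1 FPKM or more in at least 3 of the 12 libraries. This filter left 11451 genes and 31 of the 33 members. Plat and Plau did not pass. A2m, Thbd and Plaur passed through resected libraries alone, which favours higher values after resection than in sham. These members enter the counts of called members below but are described by their values, with no p. Tfpi and F8 passed only with their 12 h libraries. Differences are log2 values from the edgeR quasi-likelihood test with a standard error (SE), and called means an adjusted p under 0.05 over all tested genes. Sham replicate 1 stood apart. The mitochondrial genome gave 11.9% of its counts, and 6.26% and 5.52% of those of the other sham libraries, and its lowest correlation with another sham library was 0.950 over log CPM. Several members were out of line in it, namely F12, Proc and Vkorc1 low and F9, F13b and F5 high, so results that turn on it are given with and without it. In bulk tissue, fewer cells of a type and less RNA per cell cannot be told apart.

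Against sham, 9 members were called at 3 h, 5 higher and 4 lower, where 21.6% of all tested genes were called (9.81% higher and 11.7% lower). At 6 h, 15 were called, 8 higher and 7 lower, against 35% of all tested genes (16.8% higher and 18.2% lower). At 12 h, 21 were called, 7 higher and 14 lower, against 28.8% of all tested genes (13.5% higher and 15.3% lower). The called share of the 31 tested members was thus 29.0%, 48.4% and 67.7% at 3, 6 and 12 h. The median log2 difference of the members was 0.06, -0.12 and -0.37 at the 3 times, and that of all tested genes was -0.02, -0.01 and -0.02. Among the 28 tested members other than A2m, Thbd and Plaur, 2 were higher and 4 lower at 3 h, 5 higher and 7 lower at 6 h, and 5 higher and 14 lower at 12 h. The called share of these 28 was 21.4%, 42.9% and 67.9%, so at 3 h it was near the 21.6% of all tested genes. Scaling by library totals shifted the all-gene median by -0.18 at 3 h and -0.31 at 6 h, and the splits were 4 higher and 6 lower at 3 h and 6 higher and 14 lower at 6 h. Of the 11451 tested genes, that scaling called 782 higher and 2346 lower at 3 h, and 1048 higher and 3706 lower at 6 h. Without both sham replicate 1 and 6 h replicate 3, the split at 3 h was 6 higher and 3 lower. Without 12 h replicate 3, or with only the 6 libraries compared, 14 members were called at 12 h. Without sham replicate 2 or sham replicate 3, 15 were called at 12 h, and without sham replicate 1, 23 were. At 3 h, 6 were called without 3 h replicate 3 and with only the 6 libraries compared. The share of all tested genes called in these fits with fewer libraries is not given here. The drops can therefore not be read as particular to the members.

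**Figure D1:**
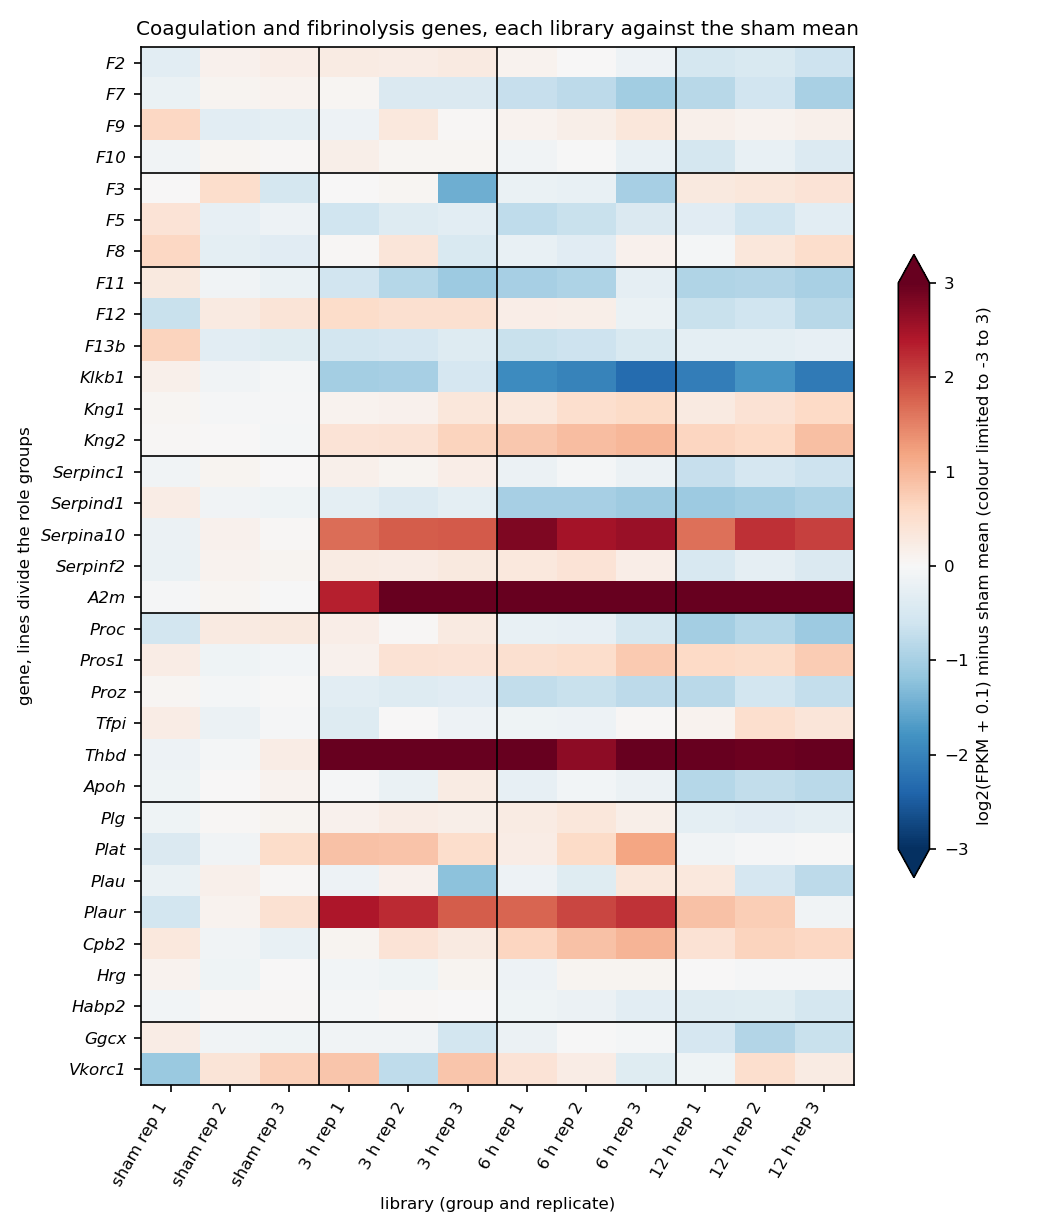
Each row is one of the 33 members and each column a library, coloured by log2(FPKM + 0.1) minus the sham mean of that gene, with lines dividing role groups and libraries of different times. Serpina10, A2m and Thbd are red in all 9 resected libraries, Klkb1 is blue in them, and a block of paler blue rows appears at 12 h.

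The course differed between members. Serpina10, Kng2, A2m and Thbd were higher than sham at all 3 times, and F11, Klkb1, Serpind1 and Proz were lower at all 3. Cpb2, Kng1 and Pros1 were higher at 6 and 12 h, Plaur was higher at 3 and 6 h, and F7 was lower at 6 and 12 h. F5 and F13b were lower at 6 h. A further 9 members, F2, F10, F12, Serpinc1, Serpinf2, Proc, Apoh, Habp2 and Ggcx, were lower at 12 h and not called at 3 or 6 h. Of these 9, 8 were lower at 12 h than at 3 h, all but Ggcx, and 7 were lower at 12 h than at 6 h, all but F10 and Habp2. Of all tested genes, 18.2% were lower at 12 h than at 3 h and 12.6% at 12 h than at 6 h. The 9 were picked by calls on the same 12 h libraries, so these counts are no independent support. F3, F8, F9, Hrg, Plg, Tfpi and Vkorc1 were not called against sham at any time. These courses depend on the scaling. By library totals F10, Serpinc1, Proc, Apoh, Habp2, Ggcx and Hrg were lower at 6 h as well, where 3706 of all tested genes were lower. The test over all 4 groups called 24 of the 31 members, where 50% of all tested genes were called.

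**Figure D2:**
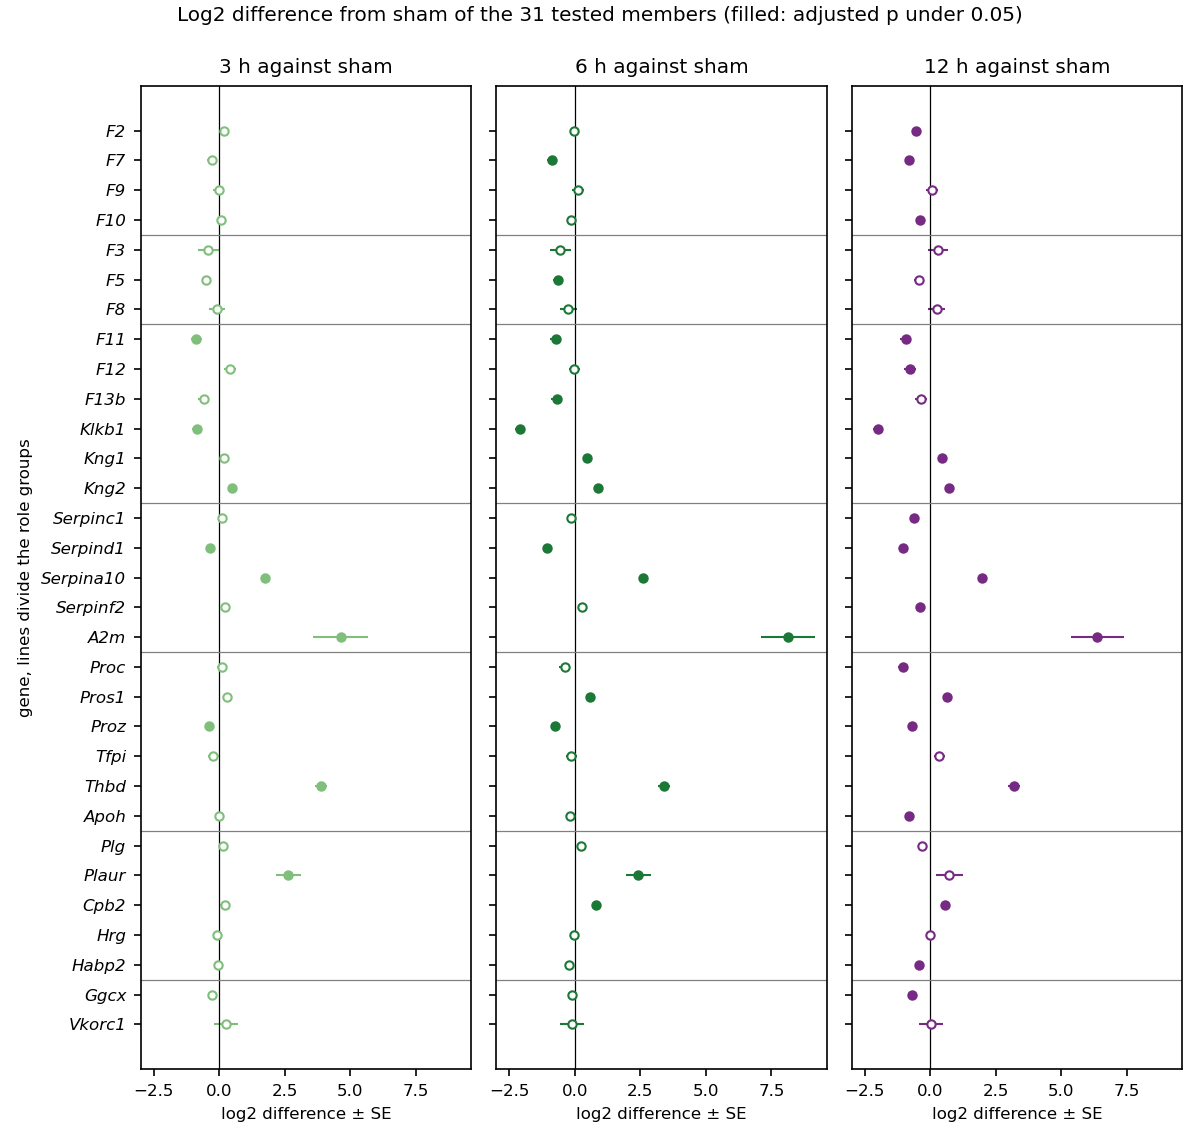
Log2 difference from sham with its SE (horizontal axis) for the 31 tested members (rows, lines divide the role groups) at 3, 6 and 12 h. Filled points were called at an adjusted p under 0.05, and the filled points left of 0 number 4, 7 and 14 at the 3 times. A2m, Thbd and Plaur passed the filter through resected libraries alone.

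Among the vitamin K-dependent procoagulant zymogens, none of 4 was called at 3 h, 1 fell at 6 h and 3 fell at 12 h. These and the role group counts below stand beside 21.6%, 35% and 28.8% of all tested genes called at 3, 6 and 12 h. F2, which encodes prothrombin, had 242, 333 and 348 FPKM in sham libraries, 360, 353 and 365 FPKM at 3 h, 328, 308 and 272 FPKM at 6 h, and 211, 220 and 197 FPKM at 12 h. The 12 h libraries were all below every sham library, and the log2 difference at 12 h was -0.56 ± 0.15 (SE, adjusted p = 0.0125). F7, the factor that pairs with tissue factor, had 46.4, 56.1 and 57.6 FPKM in sham libraries, 55.4, 39.4 and 39.6 FPKM at 3 h, 32.8, 30.8 and 25.6 FPKM at 6 h, and 30.0, 35.7 and 26.9 FPKM at 12 h. Every 6 h and 12 h library lay below every sham library, and F7 fell by 0.87 ± 0.18 at 6 h (adjusted p = 0.0018) and by 0.80 ± 0.18 at 12 h (adjusted p = 0.00453) on the log2 scale. F10, whose active form makes thrombin, had 128, 144 and 140 FPKM in sham libraries, 154, 142 and 144 FPKM at 3 h, 127, 136 and 117 FPKM at 6 h, and 95.4, 117 and 103 FPKM at 12 h. Its 12 h values were below all sham values, with a log2 difference of -0.39 ± 0.13 (adjusted p = 0.0319).

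F9, the zymogen whose loss causes haemophilia B in humans, had 57.9 to 111 FPKM in sham libraries and 64.9 to 92.1 FPKM after resection, and was not called at any time. Its highest value was in sham replicate 1. Without that library the log2 difference of F9 was 0.48 at 6 h and 0.43 at 12 h, and both passed the test. The call of F2 at 12 h was lost without sham replicate 2 (-0.50), sham replicate 3 (-0.46) or 12 h replicate 3 (-0.52), and with only the 6 libraries compared (-0.56). The call of F10 at 12 h was lost without sham replicate 2 (-0.36), sham replicate 3 (-0.38), 12 h replicate 1 (-0.33) or 12 h replicate 3 (-0.38), with no filter (-0.40) and with only the 6 libraries compared (-0.39).

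Of the initiator and the cofactors, 1 of 3 fell, at 6 h. F5, the cofactor of factor Xa, had 99.4, 63.3 and 67.9 FPKM in sham libraries, 49.4, 57.7 and 60.6 FPKM at 3 h, 44.5, 47.5 and 56.1 FPKM at 6 h, and 59.7, 49.8 and 60.7 FPKM at 12 h. All resected libraries lay below all sham libraries, and the difference passed the test at 6 h (log2 -0.67 ± 0.18, adjusted p = 0.00959). It was -0.50 ± 0.18 at 3 h (adjusted p = 0.0579) and -0.45 ± 0.18 at 12 h (adjusted p = 0.0716). Without sham replicate 1, its highest library, the 6 h difference was -0.44 and was still called, and without sham replicate 2 the differences at 3 h (-0.62) and 12 h (-0.57) passed as well. DESeq2 also called F5 at 3 h (-0.49). F3, which encodes tissue factor, was low, at 1.63, 2.36 and 1.09 FPKM in sham libraries, 1.64, 1.69 and 0.523 FPKM at 3 h, 1.39, 1.36 and 0.758 FPKM at 6 h, and 1.99, 2.08 and 2.19 FPKM at 12 h. Those values rest on 19 to 111 counts per library. Each resected group overlapped the sham libraries, while the 12 h libraries lay above all 3 h and 6 h libraries, a difference that was not called (adjusted p = 0.176 and 0.144). The SE of its log2 differences from sham was 0.39 to 0.41. F8, the cofactor made mainly by endothelial cells, lay between 0.569 and 1.32 FPKM in all 12 libraries and was not called.

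The contact and late factors moved in both directions, with 1 of 6 higher and 2 lower at 3 h, 2 higher and 3 lower at 6 h, and 2 higher and 3 lower at 12 h. Klkb1, which encodes plasma prekallikrein, showed the largest fall among the tested members. It had 50.2, 41.8 and 43.5 FPKM in sham libraries, 22.0, 22.6 and 31.9 FPKM at 3 h, 12.0, 11.2 and 9.06 FPKM at 6 h, and 10.6, 13.2 and 10.2 FPKM at 12 h. No resected library reached a sham value, and the mean at 6 h and at 12 h was 23.8% and 25.2% of the sham mean. Its log2 differences were -0.87 ± 0.17 at 3 h (adjusted p = 0.00278), -2.10 ± 0.18 at 6 h (adjusted p = 2.2e-06) and -2.0 ± 0.18 at 12 h (adjusted p = 6.89e-06). It was also lower at 6 h than at 3 h, by -1.23 ± 0.17 (adjusted p = 0.0013). Of its annotated exonic bases, 43.2% lie under exons of Gm45753 on the same strand in GENCODE M21, and reads there cannot be told apart.

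F11, which encodes factor XI, had 84.3, 64.0 and 59.2 FPKM in sham libraries, 46.1, 37.6 and 32.1 FPKM at 3 h, 34.0, 36.0 and 56.6 FPKM at 6 h, and 36.6, 37.1 and 34.8 FPKM at 12 h. All resected libraries were below all sham libraries, with log2 differences of -0.88 ± 0.21, -0.74 ± 0.21 and -0.94 ± 0.21 at the 3 times (adjusted p = 0.00902, 0.0139 and 0.00479). The 6 h call was lost without 6 h replicate 1 (-0.60) or 6 h replicate 2 (-0.64), and the high 6 h value was in replicate 3. Kng2, a kininogen gene, had 86.0, 83.5 and 80.3 FPKM in sham libraries, 111, 113 and 132 FPKM at 3 h, 147, 157 and 166 FPKM at 6 h, and 130, 125 and 156 FPKM at 12 h. The sham libraries were close to each other and below all others. Kng2 rose by 0.47 ± 0.13, 0.88 ± 0.13 and 0.71 ± 0.13 on the log2 scale at 3, 6 and 12 h (adjusted p = 0.0182, 0.000158 and 0.00133). The 3 h call was lost without sham replicate 2 (0.47), sham replicate 3 (0.45) or 3 h replicate 3 (0.40), with only the 6 libraries compared (0.49) and when scaled by library totals (0.29). By that last scaling the 6 h rise was 0.57.

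Kng1, its paralogue, had 548 to 578 FPKM in sham libraries, 604 to 703 FPKM at 3 h, 699 to 830 FPKM at 6 h and 671 to 841 FPKM at 12 h. It rose by 0.44 ± 0.13 at 6 h (adjusted p = 0.0155) and 0.42 ± 0.13 at 12 h (adjusted p = 0.0243). At 6 h the call was lost without sham replicate 2 (0.43) or 6 h replicate 3 (0.39), and at 12 h without sham replicate 2 (0.41), sham replicate 3 (0.41), 12 h replicate 2 (0.43) or 12 h replicate 3 (0.34). Both calls of Kng1 were lost with no filter (0.47 and 0.42) and with only the 6 libraries compared (0.43 and 0.43), and the 6 h call also when scaled by library totals (0.13). The transcripts of Kng1 and Kng2 share 17.2% and 19.4% of their 50-base words, so how reads were split between this pair is uncertain. F12, the contact factor that starts the intrinsic pathway, had 124, 238 and 256 FPKM in sham libraries, 273 to 287 FPKM at 3 h, 172 to 227 FPKM at 6 h and 110 to 130 FPKM at 12 h. Its 12 h libraries overlapped sham replicate 1 alone, and the 12 h difference was -0.78 ± 0.22 (adjusted p = 0.0188). That call was lost without sham replicate 2 (-0.66), sham replicate 3 (-0.59) or 12 h replicate 3 (-0.71), and with only the 6 libraries compared (-0.77). F13b, the carrier subunit of factor XIII, had 125, 63.0 and 61.0 FPKM in sham libraries, 53.3 to 60.2 FPKM at 3 h, 49.2 to 56.6 FPKM at 6 h and 63.6 to 66.3 FPKM at 12 h. Sham replicate 1 was far above all other libraries. Its 6 h difference of -0.70 ± 0.22 (adjusted p = 0.0252) was -0.28 and not called without sham replicate 1, and -0.35 and called without both that library and 6 h replicate 3. The call was also lost without 6 h replicate 1 (-0.66) or 6 h replicate 2 (-0.68), in both limma fits (-0.58 and -0.59) and with only the 6 libraries compared (-0.71), while the 3 h difference passed without sham replicate 2 (-0.76) or sham replicate 3 (-0.78).

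Several of these genes are neighbours in the genome. F11 and Klkb1 lie on the minus strand of chromosome 8 (GRCm38, chr8:45241174-45294859), 4.7 kb apart, and both fell at all 3 times. The mean of F11 was 55.8%, 61.0% and 52.3% of the sham mean at 3, 6 and 12 h, whereas that of Klkb1 was 56.5%, 23.8% and 25.2%. F7, F10 and Proz follow each other on the plus strand of the same chromosome (chr8:13026034-13076026) with gaps of 1.5 and 4.2 kb. F7 and Proz were at 55.7% and 60.2% of the sham mean at 6 h and both were called, while F10 between them was at 92.5% and was not. Hrg, Kng2 and Kng1 lie on chromosome 16 (chr16:22951072-23082078), with Kng2 on the minus strand between the other two. At 6 h Hrg was at 100% of the sham mean, Kng2 at 188% and Kng1 at 139%.

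**Figure D3:**
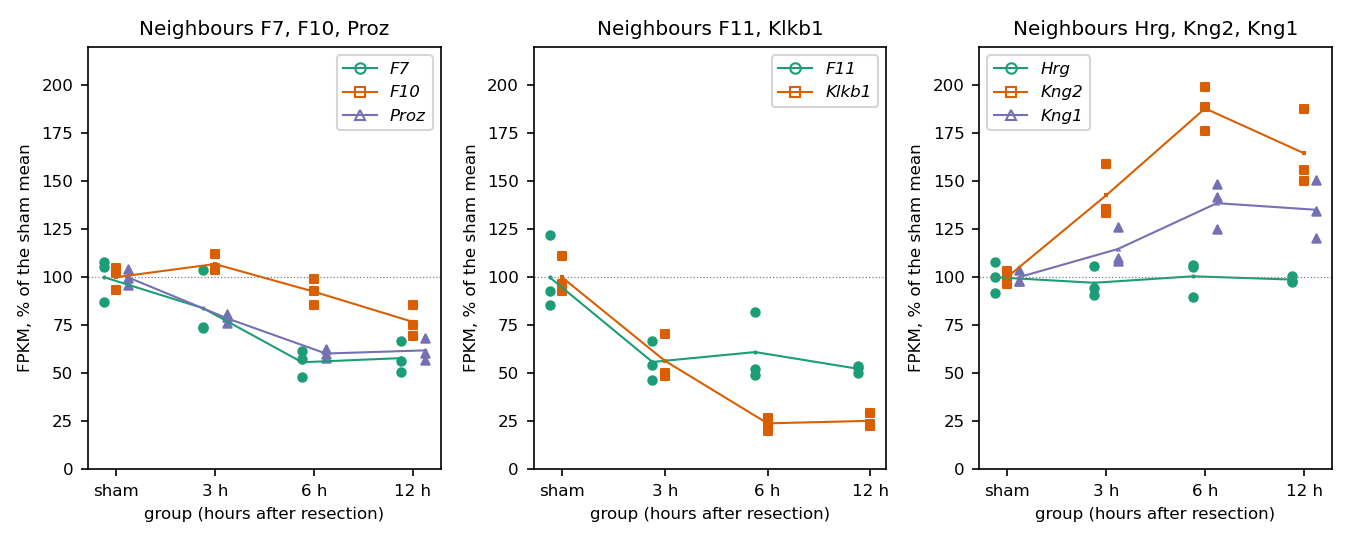
FPKM of neighbouring members in each library as a percent of the sham mean of the gene (points) with group means (lines), by group in order of time. F10 stays near 100% at 6 h beside F7 and Proz at 55.7% and 60.2%, Klkb1 falls below F11 at 6 and 12 h, and Hrg stays flat beside Kng2 and Kng1.

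RefSeq promoter windows, from 250 bases before to 50 after the gene start (GRCm38.p6), matched 25 of the 33 members, in 26 windows. Letters of 6 factors known from liver and inflammatory genes were searched on both strands. The C/EBP letters TTGCNNAA, or TTNNGCAA on the other strand, stood in 10 of the 26 member windows (38.5%), against 10.8% of all 32851 windows. The members were Cpb2, F9, F11, Ggcx, Habp2, Hrg, Klkb1, Kng2, Plaur and Serpinc1, which include genes that were higher, lower and not called against sham. The HNF1 letters stood in 2 of the 26 member windows (7.69%, F13b and Habp2) and in 0.399% of all windows. The AP-1 letters TGANTCA stood in 4 (15.4%) against 7.81% of all windows. The STAT3 letters TTCCNGGAA stood in 1 (3.85%, Pros1) against 1.15% of all windows. These member shares rest on few windows. The HNF4 letters CAAAGTCCA and those of NF-kB stood in none of the member windows and in 0.475% and 1.47% of all windows. Shown here are 2 neighbours that fell (Klkb1 and F11) and 2 members that rose (Kng2 and Cpb2), each with 1 match to the C/EBP letters, in capitals. The match begins at base -177 in Klkb1, -17 in F11, -112 in Kng2 and 9 in Cpb2, counted from the start as base 1 with no base 0. The windows are chr8:45294786-45295085 on the minus strand, chr8:45261982-45262281 on the minus strand, chr16:23029052-23029351 on the minus strand and chr14:75242037-75242336 on the plus strand, in the same order. A match of these letters is a description of the sequence and not a binding site.
Klkb1: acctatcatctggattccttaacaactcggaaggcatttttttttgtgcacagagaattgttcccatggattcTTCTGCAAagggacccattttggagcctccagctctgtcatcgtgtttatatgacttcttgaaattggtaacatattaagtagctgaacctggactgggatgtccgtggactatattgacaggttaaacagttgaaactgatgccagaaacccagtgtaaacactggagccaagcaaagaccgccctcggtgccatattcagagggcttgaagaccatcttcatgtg
F11: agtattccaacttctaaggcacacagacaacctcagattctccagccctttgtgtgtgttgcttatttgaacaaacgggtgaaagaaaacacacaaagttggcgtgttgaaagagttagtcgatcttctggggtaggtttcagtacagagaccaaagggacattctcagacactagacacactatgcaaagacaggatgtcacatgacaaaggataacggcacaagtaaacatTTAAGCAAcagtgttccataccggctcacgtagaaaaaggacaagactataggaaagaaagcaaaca
Kng2: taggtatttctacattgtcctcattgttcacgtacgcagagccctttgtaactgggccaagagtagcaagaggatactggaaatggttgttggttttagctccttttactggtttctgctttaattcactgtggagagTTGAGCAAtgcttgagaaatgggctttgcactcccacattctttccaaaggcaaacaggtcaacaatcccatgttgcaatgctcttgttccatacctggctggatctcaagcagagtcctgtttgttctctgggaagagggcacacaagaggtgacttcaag
Cpb2: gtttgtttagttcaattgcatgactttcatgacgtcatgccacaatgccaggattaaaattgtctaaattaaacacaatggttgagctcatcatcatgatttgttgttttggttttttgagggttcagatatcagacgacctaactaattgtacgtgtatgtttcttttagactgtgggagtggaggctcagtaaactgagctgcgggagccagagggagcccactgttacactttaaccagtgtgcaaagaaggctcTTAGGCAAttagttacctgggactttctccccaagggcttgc

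Of the 5 serpin and macroglobulin inhibitors, 2 were higher and 3 lower at 12 h, after 2 higher and 1 lower at both 3 and 6 h. Of all tested genes, 28.8% were called at 12 h, 21.6% at 3 h and 35% at 6 h. A2m, which the filter favoured to be higher after resection, was among the higher each time. Serpina10, the protein Z-dependent inhibitor of factor Xa, had 40.2, 49.2 and 46.5 FPKM in sham libraries, 145, 159 and 161 FPKM at 3 h, 313, 257 and 274 FPKM at 6 h, and 142, 205 and 186 FPKM at 12 h. Every resected library had more than every sham library, and the level peaked at 6 h. On the log2 scale Serpina10 rose by 1.73 ± 0.16 at 3 h (adjusted p = 8.48e-06), 2.60 ± 0.16 at 6 h (adjusted p = 2.05e-07) and 1.96 ± 0.16 at 12 h (adjusted p = 3.42e-06). It was 0.87 ± 0.15 higher at 6 h than at 3 h (adjusted p = 0.00438) and lower at 12 h than at 6 h, by -0.64 ± 0.15 (adjusted p = 0.00819). Serpind1, which encodes heparin cofactor II, had 273, 219 and 215 FPKM in sham libraries, 192, 176 and 191 FPKM at 3 h, 118, 117 and 111 FPKM at 6 h, and 111, 115 and 122 FPKM at 12 h. Every resected library was below every sham library, with log2 differences of -0.38 ± 0.12, -1.06 ± 0.13 and -1.03 ± 0.13 at 3, 6 and 12 h (adjusted p = 0.0458, 3.29e-05 and 8.66e-05). The 3 h call was the weakest of these. It was lost when any 1 library other than sham replicate 3 (-0.43 to -0.26) was left out, and also with no filter (-0.32), another filter (-0.33), median-ratio scaling (-0.37), both limma fits (-0.33), only the 6 libraries compared (-0.36) and without both sham replicate 1 and 6 h replicate 3 (-0.26).

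Serpinc1, which encodes antithrombin, had 197, 221 and 214 FPKM in sham libraries, 234, 224 and 241 FPKM at 3 h, 187, 204 and 187 FPKM at 6 h, and 129, 147 and 137 FPKM at 12 h. The 12 h libraries were below all others, with a log2 difference from sham of -0.62 ± 0.12 (adjusted p = 0.00169). In the annotation, 34.4% of its exonic bases lie under exons of Zbtb37 on the opposite strand, and the strand used in counting is not given in the sources used here. Serpinf2, which encodes the plasmin inhibitor, had 295 to 366 FPKM in sham libraries, 395 to 417 FPKM at 3 h, 390 to 451 FPKM at 6 h and 243 to 279 FPKM at 12 h. Its 12 h difference was -0.42 ± 0.13 (adjusted p = 0.0274), and it was lower at 12 h than at 6 h, by -0.70 ± 0.13 (adjusted p = 0.00175). The call against sham was lost without sham replicate 2 (-0.36), sham replicate 3 (-0.37), 12 h replicate 1 (-0.38) or 12 h replicate 3 (-0.39), with no filter (-0.42) and with only the 6 libraries compared (-0.41). DESeq2 called it higher at 6 h (0.28).

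A2m, which encodes alpha-2-macroglobulin, a broad protease inhibitor known in the rat as an acute phase protein, was near absent from sham livers. It had 0.0419, 0.0536 and 0.0444 FPKM in sham libraries, which are 5, 7 and 6 counts. It had 0.632, 1.52 and 1.5 FPKM at 3 h, 4.58, 5.29 and 31.4 FPKM at 6 h, and 1.43, 3.07 and 7.51 FPKM at 12 h. The lowest resected library was thus above the highest sham library. The libraries of a time differed widely among themselves, and replicate 3 held the highest value at 6 and 12 h. The log2 differences were 4.62 ± 1.05, 8.14 ± 1.04 and 6.37 ± 1.02 at 3, 6 and 12 h, and the 6 h difference was 6.66 without 6 h replicate 3. With few sham counts these sizes depend on the prior count. On the log2(FPKM + 1) scale the 6 h difference was 3.32, the 12 h difference 2.07, and the 3 h difference 1.05, while on the log2(FPKM + 0.1) scale the 3 h difference was 3.08.

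**Figure D4:**
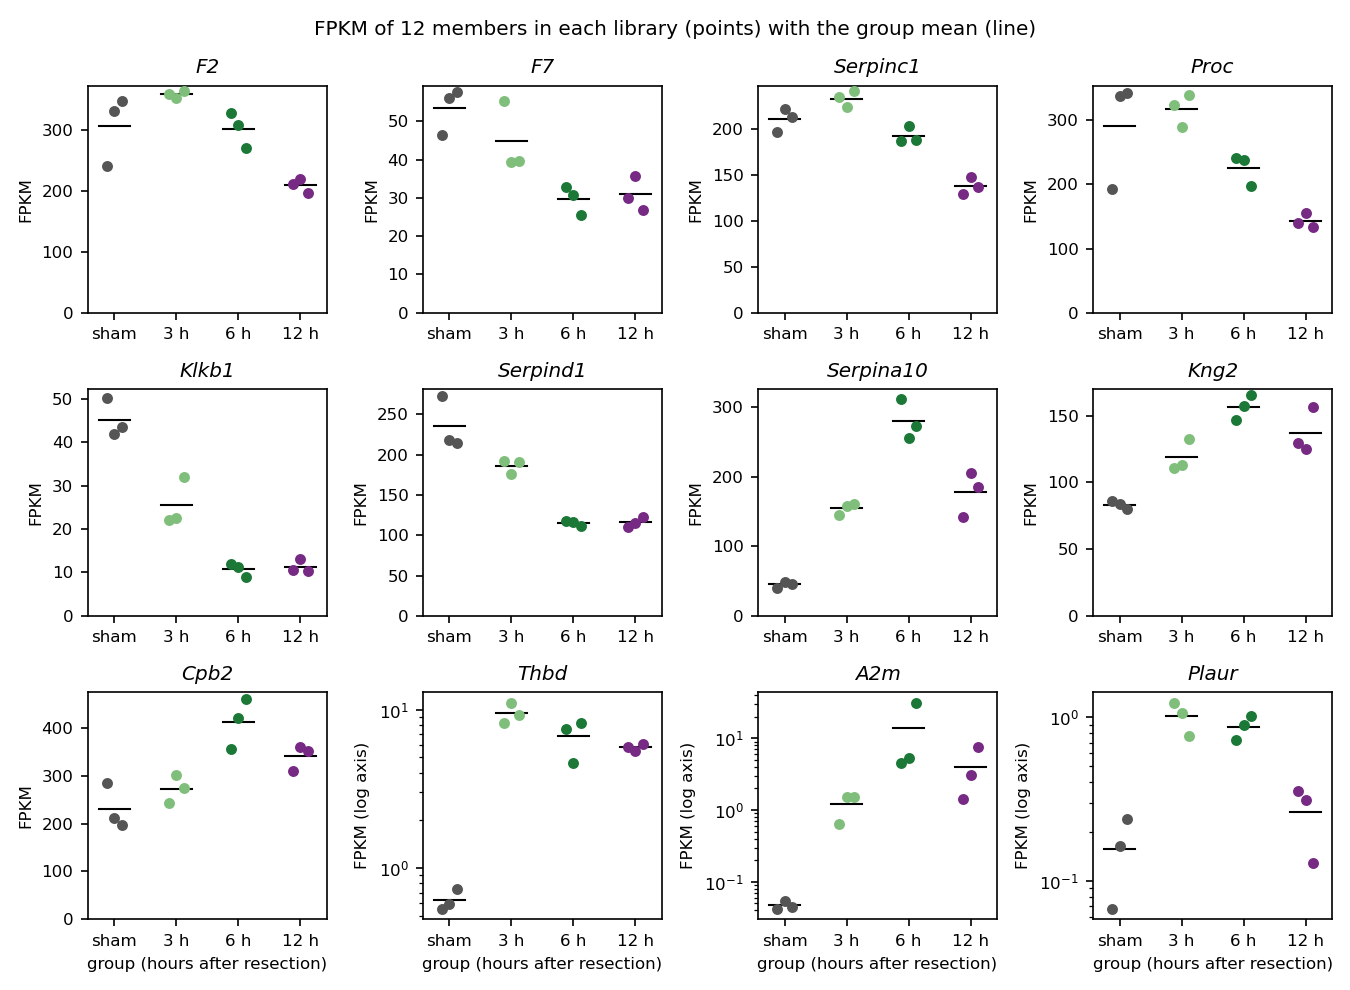
FPKM of 12 members in each library (points, the 3 replicates of a group side by side) with the group mean (line), at sham, 3, 6 and 12 h. The vertical axis starts at 0 except for Thbd, A2m and Plaur, which have a log axis. Serpina10 peaks at 6 h, Klkb1 and Serpind1 step down to 6 h and stay there at 12 h, and F2, Serpinc1 and Proc are lowest at 12 h.

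Among the protein C, protein Z and TFPI anticoagulants, 1 of 6 was higher and 1 lower at 3 h, 2 higher and 1 lower at 6 h, and 2 higher and 3 lower at 12 h, with Thbd among the higher each time. Thbd, which encodes thrombomodulin, the endothelial receptor that turns thrombin on protein C, had 0.553, 0.592 and 0.740 FPKM in sham libraries, 8.27, 11.1 and 9.28 FPKM at 3 h, 7.51, 4.59 and 8.25 FPKM at 6 h, and 5.78, 5.50 and 6.06 FPKM at 12 h. No resected library came near the sham values, and the highest group was 3 h. The log2 differences were 3.87 ± 0.24, 3.39 ± 0.23 and 3.18 ± 0.23 at 3, 6 and 12 h. They were 2.22 at 6 h and 2.06 at 12 h on the log2(FPKM + 1) scale. Markers of sinusoidal endothelium were summed beside it. Their summed FPKM was 30.1 to 34.4 in sham libraries, 42.6 to 54.1 at 3 h, between 32.3 and 36.8 at 6 h and 23.5 to 29.2 at 12 h. Of the 8 markers, 3 rose and none fell at 3 h, 2 rose and 1 fell at 6 h, and 1 rose and 2 fell at 12 h, and none was at 0. Their part in the higher level of Thbd was not tested.

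Proc, the zymogen of activated protein C, had 193, 337 and 343 FPKM in sham libraries, 324, 290 and 339 FPKM at 3 h, 242, 239 and 197 FPKM at 6 h, and 140, 156 and 133 FPKM at 12 h. The 12 h libraries were below all others, at a log2 difference from sham of -1.04 ± 0.20 (adjusted p = 0.00176). At 6 h the difference was -0.40 ± 0.19 (adjusted p = 0.133), and without sham replicate 1 it was -0.62 and was called. It was also called without both that library and 6 h replicate 3 (-0.54) and when scaled by library totals (-0.72). Pros1, which encodes protein S, the cofactor of activated protein C, moved the other way. It had 13.9 to 18 FPKM in sham libraries, 16.7 to 20.9 FPKM at 3 h, 21.3 to 26.4 FPKM at 6 h and 22.4 to 25.9 FPKM at 12 h. Pros1 rose by 0.57 ± 0.15 at 6 h (adjusted p = 0.00802) and by 0.62 ± 0.15 at 12 h (adjusted p = 0.00684) on the log2 scale. Without sham replicate 1 its 3 h difference was 0.40 and passed as well, and scaled by library totals its 6 h difference was 0.26 and did not pass.

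Proz, which encodes protein Z, fell as its partner inhibitor Serpina10 rose. It had 74.7, 68.8 and 71.2 FPKM in sham libraries, 57.7, 54.4 and 56.7 FPKM at 3 h, 43.0, 44.9 and 41.5 FPKM at 6 h, and 40.5, 49.0 and 43.3 FPKM at 12 h. Libraries of 1 group were close and all resected ones were below all sham ones, with log2 differences of -0.39 ± 0.12, -0.76 ± 0.12 and -0.70 ± 0.12 (adjusted p = 0.0317, 0.000266 and 0.000827). The 3 h call was lost without sham replicate 2 (-0.41), sham replicate 3 (-0.39) or 3 h replicates 1 (-0.39), 2 (-0.37) or 3 (-0.38), and with no filter (-0.33), another filter (-0.34) or only the 6 libraries compared (-0.37). Apoh, which encodes beta-2-glycoprotein I, had 782, 867 and 917 FPKM in sham libraries, 832, 746 and 1015 FPKM at 3 h, 722, 806 and 750 FPKM at 6 h, and 471, 513 and 489 FPKM at 12 h. The 12 h libraries were below all others, and Apoh fell by 0.81 ± 0.13 on the log2 scale at 12 h (adjusted p = 0.000741). Tfpi, the inhibitor of the tissue factor complex, was low, with 0.827 to 1.12 FPKM in sham libraries, 0.711 to 0.965 FPKM at 3 h, 0.844 to 0.971 FPKM at 6 h and 1.04 to 1.38 FPKM at 12 h. It was not called against sham.

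In the plasminogen system, 1 of 5 tested members was higher at 3 h, 2 were higher at 6 h, and 1 was higher and 1 lower at 12 h, with Plaur the one at 3 h and among those at 6 h. Plg, which encodes plasminogen, had 401, 447 and 460 FPKM in sham libraries, 477, 508 and 488 FPKM at 3 h, 520, 551 and 492 FPKM at 6 h, and 358, 343 and 357 FPKM at 12 h. The sham libraries lay between the earlier times and 12 h. Its difference from sham was 0.13 ± 0.12, 0.23 ± 0.12 and -0.32 ± 0.12 at 3, 6 and 12 h (adjusted p = 0.469, 0.15 and 0.0549). The 12 h difference passed without sham replicate 1 (-0.38), with DESeq2 (-0.31) and with limma on log2(FPKM + 0.1) (-0.30). DESeq2 also called it higher at 6 h (0.22). Plat and Plau, the tissue-type and urokinase-type plasminogen activators, did not pass the filter. Plat had 0.0471, 0.0861 and 0.192 FPKM in sham libraries, 0.267, 0.264 and 0.190 FPKM at 3 h, 0.135, 0.198 and 0.354 FPKM at 6 h, and 0.0867, 0.0965 and 0.0987 FPKM at 12 h, on 5 to 30 counts. Plau had 0.0588 to 0.373 FPKM over all 12 libraries, on 2 to 16 counts. With no filter neither was called in a comparison with sham.

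Plaur, which encodes the urokinase receptor, had 0.0675, 0.164 and 0.238 FPKM in sham libraries, 1.23, 1.06 and 0.772 FPKM at 3 h, 0.725, 0.893 and 1.01 FPKM at 6 h, and 0.351, 0.314 and 0.128 FPKM at 12 h. These are 3 to 12 counts in sham and 6 to 52 counts in resected libraries. The 3 h and 6 h libraries were above all sham libraries, at log2 differences of 2.62 ± 0.47 and 2.42 ± 0.47, and the 12 h libraries overlapped sham (0.72 ± 0.50). On the log2(FPKM + 1) scale they were 0.80 and 0.70 at 3 and 6 h. The 7 neutrophil markers were summed beside it. Their summed FPKM was 1.56 to 2.17 in sham libraries, 13.3 to 14.2 at 3 h, between 9.21 and 19.5 at 6 h and 6.49 to 8.01 at 12 h. S100a8 and S100a9 made up most of that sum. At 12 h the log2 differences from sham were 2.24 for S100a8, 2.56 for S100a9, 0.66 for Retnlg and -0.34 for Csf3r. Of the 4 that were tested, 3 had passed the filter through resected libraries alone, and Mpo was at 0 in every group. Their part in the higher level of Plaur was not tested.

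Cpb2, which encodes a carboxypeptidase that slows fibrin removal, had 284, 211 and 196 FPKM in sham libraries, 243, 301 and 274 FPKM at 3 h, 356, 421 and 461 FPKM at 6 h, and 310, 361 and 352 FPKM at 12 h. All 6 h and 12 h libraries were above all sham libraries, and Cpb2 rose by 0.81 ± 0.16 at 6 h (adjusted p = 0.00164) and 0.55 ± 0.16 at 12 h (adjusted p = 0.0207) on the log2 scale. The 12 h call was lost without sham replicate 2 (0.50), sham replicate 3 (0.45), 12 h replicate 2 (0.51) or 12 h replicate 3 (0.54) and with only the 6 libraries compared (0.56), and the 6 h rise was 0.50 when scaled by library totals. Habp2, which encodes a protease that activates factor VII and urokinase, had 48.4, 53.0 and 52.8 FPKM in sham libraries, 49.6, 52.3 and 51.5 FPKM at 3 h, 46.9, 45.7 and 41.3 FPKM at 6 h, and 39.0, 40.2 and 35.4 FPKM at 12 h. The 12 h libraries were the lowest, and the log2 difference from sham was -0.44 ± 0.12 (adjusted p = 0.0137). That call was lost without sham replicate 2 (-0.41) or 12 h replicate 3 (-0.38), with no filter (-0.45) and with only the 6 libraries compared (-0.43), and DESeq2 also called Habp2 lower at 6 h (-0.24). Hrg, which encodes a histidine-rich plasma glycoprotein that binds plasminogen and heparin, had 273 to 322 FPKM in sham libraries, 271 to 316 FPKM at 3 h, 268 to 317 FPKM at 6 h and 291 to 301 FPKM at 12 h. All 4 groups overlapped, and the log2 differences from sham were -0.08, -0.02 and -0.03, each with an SE of 0.12. Scaled by library totals, Hrg was called lower at 6 h.

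In the vitamin K cycle, neither of 2 members was called at 3 or 6 h and 1 fell at 12 h. Ggcx, the carboxylase that finishes the vitamin K-dependent factors, had 26.0, 20.7 and 20.4 FPKM in sham libraries, 20.7, 20.5 and 15.2 FPKM at 3 h, 19.5, 21.9 and 21.4 FPKM at 6 h, and 15.7, 12.1 and 13.9 FPKM at 12 h. Every 12 h library was below every sham library, and Ggcx fell by 0.70 ± 0.16 on the log2 scale (adjusted p = 0.00633). Vkorc1, the reductase that recycles vitamin K, had 2.31, 6.72 and 8.42 FPKM in sham libraries, 2.98 to 9.20 FPKM at 3 h, 3.94 to 6.77 FPKM at 6 h and 4.64 to 7.24 FPKM at 12 h. Its lowest value was in sham replicate 1, its groups overlapped, and 47.7% of its exonic bases lie under exons of Gm21974 on the same strand.

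The 14 members that were lower at 12 h were set beside hepatocyte markers, since hepatocytes make most of these proteins. Over 6 hepatocyte markers found in the table, the summed FPKM was 35342 to 36977 in sham libraries, 37422 to 45358 at 3 h, between 33580 and 38723 at 6 h and 22093 to 23831 at 12 h, and none was at 0. Alb made up most of that sum in every library. At 12 h Alb (-0.65), Ttr (-1.29) and Apoa1 (-0.76) fell, while Cps1 (0.50), Apob (0.07) and Hnf4a (-0.18) were not called. No marker was called higher at 12 h, and at 3 and 6 h 1 rose, Hnf4a. The part of these marker changes in the 12 h calls of members was not tested. The members together took between 1.45% and 1.66% of the counts in sham libraries, between 1.45% and 1.501% at 3 h, between 1.31% and 1.41% at 6 h and between 1.28% and 1.37% at 12 h.

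The times after resection were also tested against each other. At 6 h against 3 h, 5 members were called, 3 higher and 2 lower, where 8.63% of all tested genes were called (4.45% higher and 4.18% lower). At 12 h against 6 h, 10 members were called, 0 higher and 10 lower, where 24.7% of all tested genes were called (12.1% higher and 12.6% lower). At 12 h against 3 h, 15 were called, 1 higher and 14 lower, against 36% of all tested genes (17.8% higher and 18.2% lower). The higher one was Tfpi, which had passed the filter only with its 12 h libraries and was not called with no filter (0.52). The splits moved with the scaling. By library totals, which raised the median of all genes by 0.30 at 12 h against 6 h and by 0.17 at 12 h against 3 h, they were 2 higher and 4 lower, 5 higher and 2 lower, and 6 higher and 9 lower for the 3 comparisons in the same order. Of the 11451 tested genes, 325 were then higher and 761 lower, 3122 higher and 561 lower, and 3114 higher and 1356 lower, in that order. Of the 10 members lower at 12 h than at 6 h, 8 were then not called and Serpinf2 and Plaur still were. Plaur had passed the filter through 3 h and 6 h libraries alone, which favours a lower value at 12 h than at 3 or 6 h. Relative to the median of all genes in each scaling, no member moved by more than 0.0342 on the log2 scale between TMM and library totals and no called member changed sign, in any of the 6 comparisons. A change of scaling shifts all genes of a library alike, so this was fixed in advance and cannot show which scaling holds. By median-ratio scaling the split at 6 h against 3 h was 3 higher and 3 lower. Without both sham replicate 1 and 6 h replicate 3, the splits were 3 higher and 4 lower at 6 h against 3 h, and 5 higher and 16 lower at 12 h against 3 h. DESeq2 called 9 members at 6 h against 3 h, 4 higher and 5 lower. Without sham replicate 1, which enters these comparisons through the shared estimate of the spread, the members called numbered 10 at 6 h against 3 h, 11 at 12 h against 6 h and 19 at 12 h against 3 h. The added ones were F7 (-0.58), F12 (-0.41), Kng2 (0.41), Proc (-0.48) and Proz (-0.37) at 6 h against 3 h, F13b (0.33) at 12 h against 6 h, and Pros1 (0.34), Proz (-0.32), Cpb2 (0.35) and Ggcx (-0.41) at 12 h against 3 h. These sizes were the same with that library to 2 decimals, and no call was lost. Without 3 h replicate 1, 3 members were called at 6 h against 3 h, and without 6 h replicate 2 or 12 h replicate 3, 6 were called at 12 h against 6 h. Shares of all tested genes called with DESeq2 and in fits with fewer libraries are not given here.

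Other genes of haemostasis were counted for context, from a list of 34 of which 23 were tested. At 3 h 9 were higher and 3 lower, at 6 h 12 were higher and 5 lower, and at 12 h 11 were higher and 5 lower, beside the shares of all tested genes given above. Of the 23, 3 passed the filter through resected libraries alone and 1, Adamts13, only with its sham libraries, and among the other 19 there were 6 higher and 3 lower at 3 h, 9 higher and 4 lower at 6 h, and 9 higher and 4 lower at 12 h. The fibrinogen genes rose together, with Fga 1.55, 2.51 and 1.98 log2 units above sham at 3, 6 and 12 h, Fgb 1.35, 2.27 and 1.72, and Fgg 1.49, 2.48 and 1.59. Thbs1, a matrix and platelet glycoprotein gene, passed through resected libraries alone, and its log2 differences were 2.95, 3.15 and 2.37. At 12 h it was 1.40 without 12 h replicate 1. Adamts13, which encodes the protease that trims von Willebrand factor, had 1.10, 1.45 and 1.01 FPKM in sham libraries, 0.939, 1 and 0.947 FPKM at 3 h, 0.528, 0.540 and 0.404 FPKM at 6 h, and 0.527, 0.267 and 0.250 FPKM at 12 h. Its log2 differences were -1.30 at 6 h and -1.77 at 12 h, of a gene that would not have been tested without its sham libraries.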

How the data were processed

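RNA-seq of 12 liver libraries was analysed from one deposited table of counts and FPKM. The labels' protocols give TRIzol extraction and a NEBNext Ultra library kit. The submitters' processing notes name, with no role or order, HISAT2 2.0.5, DESeq2 1.20.0, featureCounts 1.5.0-p3, CASAVA 1.8 and fastp, and the build GRCm38 (mm10). Per the file headers, the deposited counts are reads per gene, and they are whole numbers with no normalization. The deposited FPKM are counts over gene length and over a library size of 85.5% to 115% of the library total, as computed from the values. That size was 85.5% to 91.2% of the total at 6 h and 106% to 115% in sham libraries. Comparisons of FPKM and both limma fits carry this scaling. Whether counting used strand is not given in the sources used here.

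Genes at 1 FPKM or above in at least 3 libraries were tested on the counts with edgeR 4.0.16 (quasi-likelihood test, TMM scaling, 2-sided) in 1 model of the 4 groups, in R 4.3.3. Tables were read with data.table (version 1.17.8). Benjamini-Hochberg adjustment was over all tested genes. The biological coefficient of variation was 20.6%. The fit was tested on simulated data first. Members, role groups, lists and tests were chosen with earlier results of these data known. Per-library values are given for called members with the 3 largest differences from sham per role group and for 11 members fixed by name, the others by range. Up to 6 called genes of the other haemostasis list are named, less 1 that is not reported here. Alternatives were no filter, the filterByExpr filter, median-ratio scaling, library totals, DESeq2 1.42.0, limma 3.58.1 on log2(FPKM + 1) and log2(FPKM + 0.1), a replicate block, a fit of only the 6 libraries compared, a 2-fold minimum and leaving out libraries. Their use for members outside the naming rule, between times and for the other haemostasis genes, and leaving out libraries of groups not compared, were added after the data were seen. Exon overlaps come from GENCODE M21 and promoters from RefSeq. Libraries of a group differed beyond counting noise, so all were kept as separate libraries. Preparations from the same animal could differ so too, and this cannot show that replicates are separate animals.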

Additional observations from a re-analysis of the deposited data

Results flagged for a closer look

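The differences from sham at 2 times were unlike each other, by the test of the times against each other, for these members. All values are log2 differences of the later minus the earlier time.

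At 6 h against 3 h, Klkb1 (-1.23), Serpind1 (-0.68), Serpina10 (0.87), A2m (3.52) and Cpb2 (0.61) differed. The A2m difference was 2.04 without 6 h replicate 3 and 3.20 and not called without 3 h replicate 1. The Cpb2 call was lost without 3 h replicate 1 (0.54), 3 h replicate 3 (0.60), 6 h replicate 2 (0.60) or 6 h replicate 3 (0.52).

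At 12 h against 6 h, F2 (-0.51), F12 (-0.76), Serpinc1 (-0.47), Serpina10 (-0.64), Serpinf2 (-0.70), Proc (-0.64), Apoh (-0.61), Plg (-0.54), Plaur (-1.70) and Ggcx (-0.58) differed. F2 was lost without 6 h replicate 1 (-0.45), 6 h replicate 2 (-0.50), 12 h replicate 1 (-0.52) or 12 h replicate 3 (-0.47). Leaving out 6 h replicate 1, 6 h replicate 2 or any 12 h replicate ended the calls of F12, at -0.69, -0.70, -0.78, -0.81 and -0.69, and of Proc, at -0.59, -0.60, -0.63, -0.71 and -0.59. Plaur, which passed the filter through 3 h and 6 h libraries alone, was lost without 12 h replicate 3 (-1.37), and Ggcx without 6 h replicate 2 (-0.54), 6 h replicate 3 (-0.56), 12 h replicate 2 (-0.49) or 12 h replicate 3 (-0.57).

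At 12 h against 3 h, F2 (-0.75), F7 (-0.51), F10 (-0.45), F12 (-1.17), Klkb1 (-1.13), Serpinc1 (-0.73), Serpind1 (-0.65), Serpinf2 (-0.63), Proc (-1.12), Tfpi (0.58), Thbd (-0.69), Apoh (-0.78), Plg (-0.45), Plaur (-1.90) and Habp2 (-0.39) differed. F7 was lost without 3 h replicate 1 (-0.33), 6 h replicate 2 (-0.51), 12 h replicate 1 (-0.49) or 12 h replicate 3 (-0.41), and F10 without 3 h replicate 1 (-0.41), 12 h replicate 1 (-0.39) or 12 h replicate 3 (-0.43). Tfpi, which passed the filter only with its 12 h libraries, was lost without sham replicate 2 or 3 or any 6 h replicate (0.58 each), 3 h replicate 1 (0.47), 3 h replicate 3 (0.57), 12 h replicate 2 (0.48) or 12 h replicate 3 (0.56), and in every alternative that kept all libraries except library totals and DESeq2, at 0.28 to 0.57 (0.58 with the replicate block). Thbd was lost without 3 h replicate 2 (-0.57) or 12 h replicate 2 (-0.66), and Habp2 without 3 h replicate 2 (-0.37) or 12 h replicate 3 (-0.33). Plaur had passed the filter through 3 h and 6 h libraries alone.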

How the results depend on the processing

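Counts of called members moved by more than 1.5 times with a 2-fold minimum, to 4, 6 and 6 at 3, 6 and 12 h against sham and to 2, 1 and 4 at 6 h against 3 h, 12 h against 6 h and 12 h against 3 h, and with DESeq2 to 9 at 6 h against 3 h. Leaving out libraries gave 6 to 9, 13 to 17 and 14 to 23 called members at 3, 6 and 12 h, 3 to 10 at 6 h against 3 h (10 without sham replicate 1), 6 to 11 at 12 h against 6 h and 11 to 21 at 12 h against 3 h, the fit without both sham replicate 1 and 6 h replicate 3 included. With the other alternatives each count stayed within 1.5 times of its value. Library totals apart, shares of all tested genes called in these fits are not given here. No change in these counts is thus shown to be particular to the members. Of 2256 values recomputed for single genes, 2008 kept their direction and their side of the threshold, 148 no longer passed, 31 newly passed and 69 changed sign. None of the 69 was called in either fit, and the cause was not tested. With library totals the differences were F2 at 3 h -0.0040, F9 at 6 h -0.18, F10 at 3 h -0.12, Kng1 at 3 h -0.023, Serpinc1 at 3 h -0.076, Serpinf2 at 6 h -0.034, Proc at 3 h -0.11, Plg at 3 h -0.052, Plg at 6 h -0.087 and Vkorc1 at 12 h -0.0099. With the filterByExpr filter the differences were F2 at 6 h 0.0019, F9 at 3 h 0.019, F12 at 6 h 0.034, Apoh at 3 h 0.023, Hrg at 6 h 0.031 and Habp2 at 3 h 0.0019. With no filter the differences were F9 at 3 h 0.026, F12 at 6 h 0.0066, Apoh at 3 h 0.026, Hrg at 6 h 0.0087 and Habp2 at 3 h 0.0037. By limma on log2(FPKM + 1) the differences were F9 at 3 h 0.064, F12 at 6 h 0.067, Apoh at 3 h 0.0059, Hrg at 6 h 0.0062 and Vkorc1 at 6 h 0.050. By limma on log2(FPKM + 0.1) the differences were F9 at 3 h 0.066, F12 at 6 h 0.068, Apoh at 3 h 0.0059, Hrg at 6 h 0.0062 and Vkorc1 at 6 h 0.088. Leaving out libraries, sign changes came in the ranges F2 at 6 h -0.20 to 0.050, F9 at 3 h -0.19 to 0.34, F9 at 6 h -0.045 to 0.48, F9 at 12 h -0.093 to 0.43, F8 at 3 h -0.33 to 0.34, F8 at 6 h -0.44 to 0.17, F12 at 6 h -0.28 to 0.17, F13b at 12 h -0.55 to 0.046, Proc at 3 h -0.14 to 0.22, Apoh at 3 h -0.14 to 0.063, Hrg at 6 h -0.079 to 0.055, Hrg at 12 h -0.086 to 0.027, Vkorc1 at 3 h -0.14 to 0.60, Vkorc1 at 6 h -0.48 to 0.27 and Vkorc1 at 12 h -0.36 to 0.39.

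The replicate numbers are not known to pair the libraries. Deviations of same-numbered libraries correlated over 0.1 in 4 of 18 pairs (-0.25 to 0.17). Differently numbered libraries were not compared, so these values cannot decide it. With the replicate block, 7, 15 and 21 members were called at 3, 6 and 12 h against sham, and 4, 11 and 14 at 6 h against 3 h, 12 h against 6 h and 12 h against 3 h. Serpind1 (-0.38) and Proz (-0.39) at 3 h, Cpb2 (0.61) at 6 h against 3 h, and F7 (-0.51) and Tfpi (0.58) at 12 h against 3 h then missed the threshold. The share of all tested genes called with the replicate block is not given here. Depth limits F3, F8, Tfpi, Plat, Plau and Plaur, and the sham values of A2m and Thbd, which rest on few counts per library.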
